A study of Oryza sativa with 4 samples.

Results

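The silicon transporter genes of rice examined here are Lsi1 (LOC_Os02g51110), Lsi6 (LOC_Os06g12310), Lsi2 (LOC_Os03g01700) and Lsi3 (LOC_Os10g39980), 4 genes chosen by name and looked up by identifier among the 20561 identifiers that the deposited tables hold between them. Bulk RNA was sequenced from protoplasts, cells freed of their walls by enzymes, of root tips of 2 cultivars: 93-11, an indica rice, and Nipponbare, a japonica rice, with 2 libraries each. All seedlings were 3 days old and grown in the same complete nutrient solution, and tips of 5 mm were taken from 800 crown roots. No treatment or transgene distinguished the groups. Because cultivar and protoplast preparation change together they cannot be told apart, and the labels do not say that replicate libraries stem from different preparations, so p-values measure library spread alone, which may be technical.

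Rice takes up silicon as uncharged silicic acid and deposits it as silica in leaves and husks. Entry into root cells runs through Lsi1, a channel of the NIP group of aquaporins, and exit toward the stele through Lsi2, an efflux transporter. Both proteins are known from the exodermis and endodermis, where Lsi1 faces the soil side and Lsi2 the stele side, and both are known for weaker expression at the root tip than in the mature root. Lsi6 is the closest relative of Lsi1 and is known from root tips, leaves and nodes. Lsi3 is a relative of Lsi2, known from nodes and from the pericycle of roots. Arsenite enters rice by the same channels.

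All 4 genes were listed for Nipponbare, and Lsi6 and Lsi2 were listed for 93-11 as well. Values are in RPM, read numbers scaled to a common library total, and the library totals implied by the values ran from 21504426 to 21504715 reads. A read was worth 0.0465 RPM. The decimal points of values of 1 RPM and above had been lost in the deposited tables and were restored from the fact that every value must be a whole number of reads. If both read numbers of a gene in fact ended in 0, its restored value would be 10 times too low. Transcript lengths were not available, so no order of abundance between the 4 genes is given, only comparisons of the same gene between libraries.

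Lsi6, the NIP channel, had 396.8 and 418.4 RPM in the 93-11 libraries, from 8534 and 8997 reads. In the Nipponbare libraries it had 199.3 and 205.8 RPM, from 4286 and 4426 reads. Both 93-11 libraries lay above both Nipponbare libraries, with no overlap. The means were 407.6 ± 15.2 RPM in 93-11 and 202.6 ± 4.60 RPM in Nipponbare (SD, n = 2 each), a ratio of 2.01. On the log2(RPM + 1) scale Lsi6 was 1.00 higher in 93-11 (SE 0.0416, 95% interval 0.89 to 1.12), and limma's test called it (Benjamini-Hochberg adjusted p = 1.04e-05). The 95% exact Poisson intervals for counting error ran from 388 to 405 and from 410 to 427 RPM in the 93-11 libraries and did not overlap, so these libraries differed by more than counting error. Their difference of 5.28% was close to the median difference of 4.83% among the 314 genes of 93-11 with between 0.5 and 2 times its reads. The Nipponbare libraries differed by 3.21%, above the median of 1.83% among 819 such genes of Nipponbare.

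The size of the Lsi6 difference depended on how the libraries were scaled, while its direction did not. It was 0.47 after median-ratio scaling (limma adjusted p = 6.26e-05) and 1.72 after quantile normalization (limma adjusted p = 1.55e-06), against 1.00 without further scaling.

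Lsi1, the soil-side channel, was listed for Nipponbare only, with 4.19 and 4.88 RPM from 90 and 105 reads. The counting intervals of these libraries, 3.37 to 5.14 and 3.99 to 5.91 RPM, overlapped. Their mean was 4.53 ± 0.493 RPM (SD, n = 2), and their difference of 15.4% was close to 1 SD of counting error, 14.4%. Without a 93-11 value Lsi1 could not be compared between the cultivars. Lsi1 and Lsi6 encode related channels, and whether reads of either were assigned to the other was not tested.

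**Figure D1:**
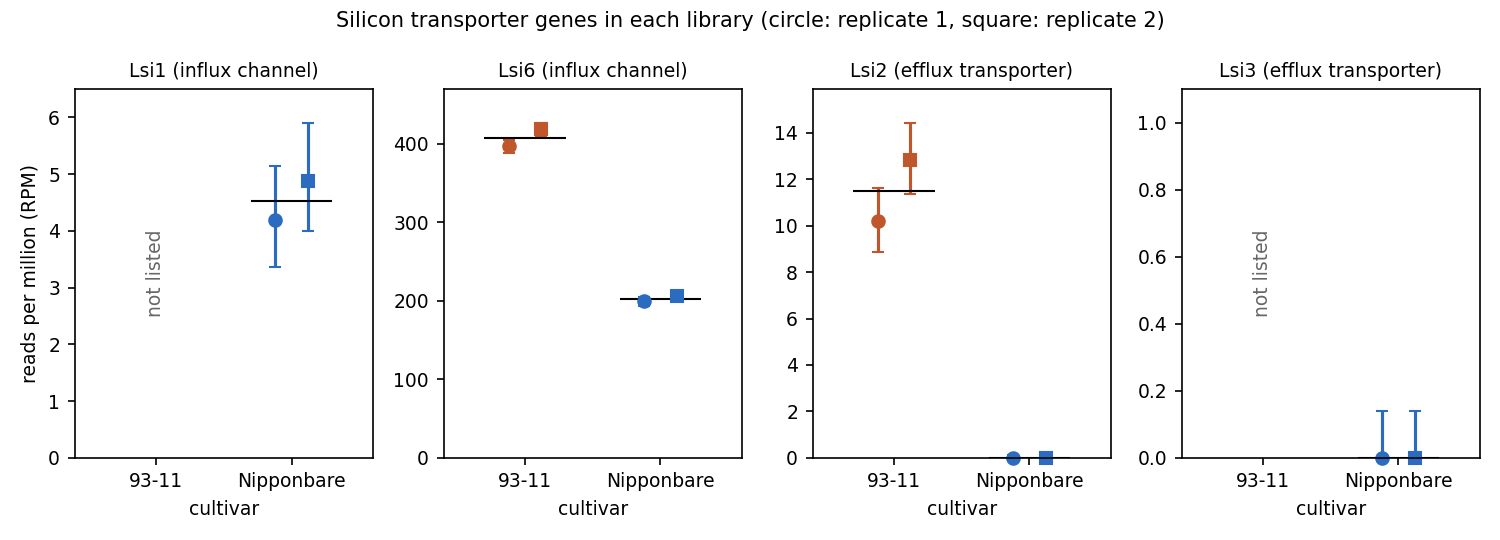
RPM of the silicon transporter genes (vertical axes, linear, each with its own range) in the libraries of 93-11 and Nipponbare. Points are libraries, bars the 95% exact Poisson interval for counting error or, at 0 reads, the limit of 3 reads, and horizontal lines the means. Lsi6 lies between 396.8 and 418.4 RPM in 93-11 and between 199.3 and 205.8 RPM in Nipponbare, Lsi2 between 10.2 and 12.8 RPM in 93-11 and at 0 in Nipponbare, while Lsi1 and Lsi3 have values for Nipponbare only.

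Lsi2, the efflux transporter that works with Lsi1, had 10.2 and 12.8 RPM in the 93-11 libraries, from 219 and 276 reads. Both Nipponbare libraries had 0 reads, which allows up to 0.140 RPM in each, the worth of 3 reads. Its mean in 93-11, 11.5 ± 1.87 RPM (SD, n = 2), was 82.5 times that floor per library. This ratio leaves out the error of the 93-11 values. Their 95% counting intervals ran from 8.88 to 11.6 and from 11.4 to 14.4 RPM. The limma difference was 3.64 on the log2(RPM + 1) scale (SE 0.123, 95% interval 3.31 to 3.96, adjusted p = 5.19e-06). This fitted difference depends on the pseudocount and is no bound, being 6.85 with a pseudocount of 0.1 RPM. With both Nipponbare values at 0, the gene's own spread came from 93-11 alone. There its libraries differed by 23.03%, against a median of 8.04% among 3244 genes with between 0.5 and 2 times its reads and 9.05% for 1 SD of counting error.

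Lsi3, the relative of Lsi2, was listed for Nipponbare only and had 0 reads in both libraries. The same limit of 0.140 RPM applies there, and it covers counting error only. Whether its RNA was absent or was not counted was not tested, and no comparison with 93-11 was possible. In Nipponbare neither exporter gene had a read, while both channel genes did. In 93-11 there were 39.0 and 32.6 Lsi6 reads for each Lsi2 read. In Nipponbare the ratio was at least 1429 and 1475 if Lsi2 is set to its limit of 3 reads. The length of the transcripts does not enter this comparison of ratios between cultivars if both cultivars were counted over the same gene models. The annotation was not given, so this was assumed.

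Both members that could be tested were called higher in 93-11, but calls were the rule in these tables. Of the 7267 genes tested, 97.0% were called in some direction, 59.0% higher in 93-11 and 37.9% higher in Nipponbare. In 59.6% of tested genes both 93-11 libraries lay above both Nipponbare libraries. The calls for Lsi6 and Lsi2 alone thus do not set them apart. Over the tested genes the differences had a median of 1.45 (log2). It lay between 2 peaks, with 455 genes at -1.5 to -1, 191 at 0 to 0.5 and 800 at 2 to 2.5. Lsi6 lay 0.44 below the median, with 45.2% of the tested genes at a lower difference. Lsi2 lay 2.19 above it, with 89.4% of genes at a lower difference. After quantile normalization the median was 0.59 and Lsi6 lay 1.14 above it, so its place relative to other genes turned with that scaling, whereas Lsi2 was above the median under all 11 alternative settings.

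**Figure D2:**
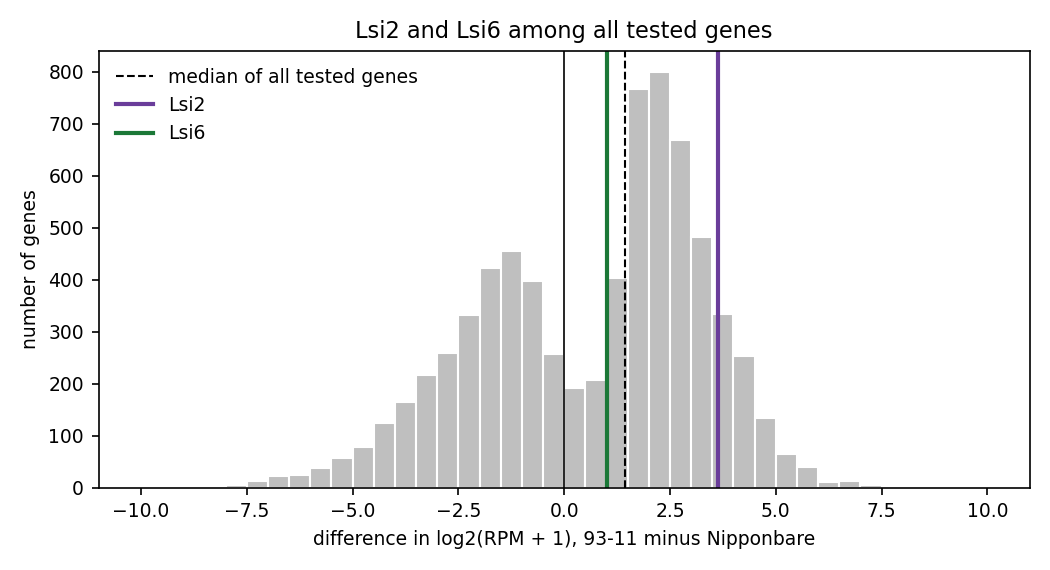
Number of tested genes (vertical axis) by difference in log2(RPM + 1), 93-11 minus Nipponbare (horizontal axis, bins of 0.5), with lines at Lsi6, Lsi2 and the median of all tested genes. Lsi6 at 1.00 lies just left of the median of 1.45 and Lsi2 at 3.64 in the right part of the distribution.

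Absence of reads in Nipponbare was shared by other genes. Of the 3589 genes listed for both cultivars with a mean of at least 10 RPM in 93-11, 272 (7.58%), Lsi2 among them, had 0 reads in both Nipponbare libraries. In the other direction, 21 of 2690 genes (0.781%) with at least 10 RPM in Nipponbare had 0 reads in both 93-11 libraries. The Nipponbare table lists 3654 genes (23.3%) at 0 in both libraries, Lsi2 and Lsi3 among them, and the 93-11 table lists 529 (3.92%). Whether these zeros stem from absent RNA or from the counting of genes was not tested.

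**Figure D3:**
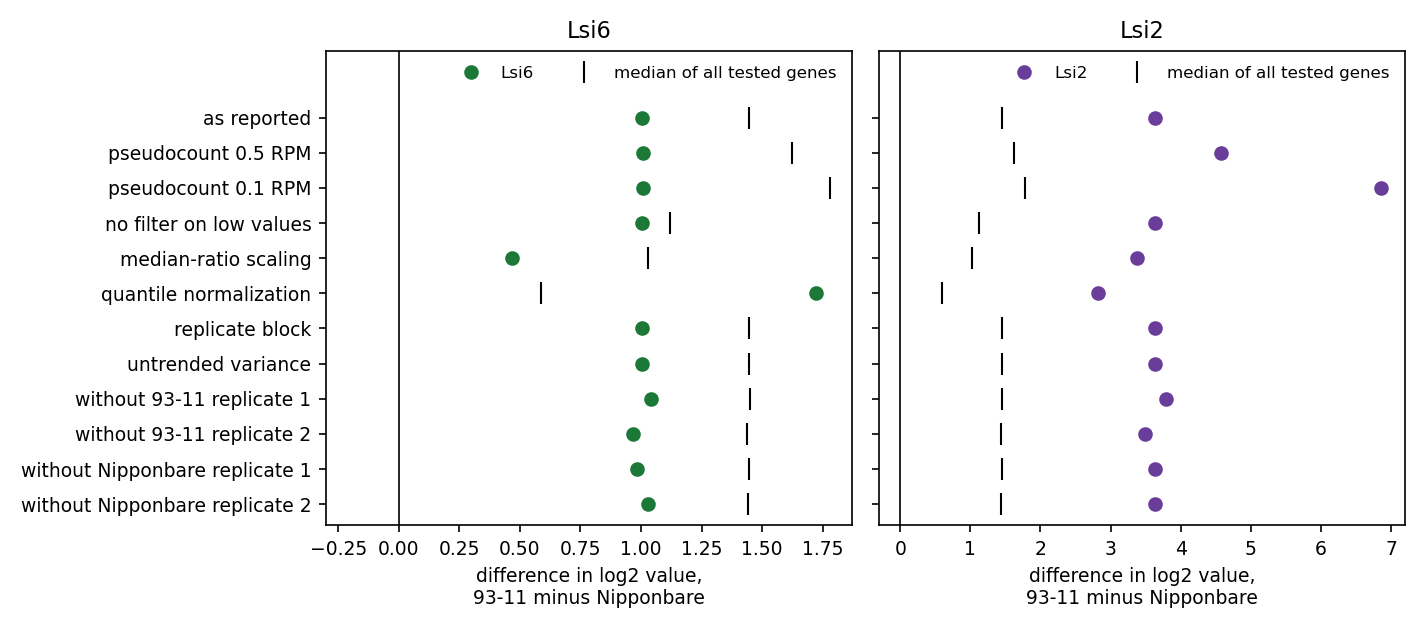
Difference in log2 value, 93-11 minus Nipponbare (horizontal axes), of Lsi6 and Lsi2 under the reported setting and each alternative (rows), with ticks at the median of all tested genes. Lsi6 runs from 0.47 to 1.72 and lies right of the median only after quantile normalization, while Lsi2 runs from 2.82 to 6.85.

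The lists beside the silicon transporters hold 40 genes, of which 17 could be tested, with 14 called higher in 93-11, 2 higher in Nipponbare and 1 not called, against 59.0% and 37.9% of all tested genes called in those directions. Of these 17 genes, 11 are cell-type or meristem markers. The median difference of all 17 genes was 3.50 on the log2 scale, against 1.45 over all tested genes. Of the 7 other NIP channel genes, only NIP1;3 (LOC_Os05g11560) was listed for both cultivars. It had 18.0 and 18.2 RPM in 93-11 and 16.8 and 17.9 RPM in Nipponbare. The 93-11 libraries lay just above the Nipponbare libraries, and limma did not call the difference of 0.06 (95% interval -0.11 to 0.22, adjusted p = 0.421). It was -0.45 after median-ratio scaling and -0.60 after quantile normalization, called higher in Nipponbare under both. NIP3;3 (LOC_Os08g05590) was listed for Nipponbare only at 106.5 ± 1.84 RPM, and NIP4;1 (LOC_Os01g02190) likewise at 0.953 ± 0.0986 RPM (SD, n = 2 each).

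Among 9 genes that handle arsenic and boron, 4 were tested and went in both directions. HAC1;2, an arsenate reductase that is known to let roots release arsenic again as arsenite, had 35.7 and 34.6 RPM in 93-11 and 4.93 and 4.42 RPM in Nipponbare. It was 2.67 higher in 93-11 on the log2(RPM + 1) scale (limma adjusted p = 3.03e-06). ABCC1, a vacuolar transporter that stores arsenic bound to phytochelatins, had 378 and 365 RPM in 93-11 and 106 and 108 RPM in Nipponbare, a difference of 1.79 (limma adjusted p = 1.59e-06). In the opposite direction, ACR2.1, another arsenate reductase gene, had 27.3 and 30.6 RPM in 93-11 and 64.5 and 62.9 RPM in Nipponbare, a difference of -1.11 (limma adjusted p = 5.04e-05). The phosphate transporter gene PT8, whose product also carries arsenate, was lower in 93-11 as well, with 273 and 280 RPM in 93-11 and 1786 and 1801 RPM in Nipponbare, a difference of -2.69 (limma adjusted p = 7.05e-07) that was -1.77 after quantile normalization. Only the Nipponbare table held the borate exporter gene BOR1, at 20.5 ± 2.50 RPM, and HAC1;1, at 10.6 ± 0.197 RPM. BOR4 was listed for 93-11 only, at 0.651 ± 0.197 RPM (SD, n = 2 each).

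Of the manganese transporters known from the same cell layers as Lsi1 and Lsi2, the importer gene NRAMP5 was in neither table. The exporter gene MTP9 (LOC_Os01g03914), placed on the stele side like Lsi2, had 13.2 and 14.3 RPM in 93-11 and 4.84 and 4.60 RPM in Nipponbare. Both 93-11 libraries were higher, by 1.36 on the log2(RPM + 1) scale (limma adjusted p = 3.88e-05), and the difference was 0.89 after median-ratio scaling and 0.45 after quantile normalization.

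Markers of the cells that hold these transporters were low or could not be compared. Among 3 endodermis markers, the regulator gene SCR2 had 1.67 and 1.12 RPM in 93-11 and 0 reads in both Nipponbare libraries. SCR1 was listed for Nipponbare only, with 0 reads in both libraries, and CASP1, which organizes the Casparian strip, was listed for 93-11 only, at 34.4 and 34.3 RPM. None of the 3 entered the test, SCR2 because its mean over the 4 libraries was under 1 RPM. With no filter on low values limma called SCR2 higher in 93-11 (adjusted p = 0.00113), as it did 5278 of 8574 genes. In that fit the stele marker SHR1 was also called higher in 93-11 (limma adjusted p = 2.64e-05). The meristem gene QHB was not called (limma adjusted p = 0.0527).

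Few markers of other cells could be compared. Of 7 stele and xylem markers, 3 were listed for both cultivars, and their summed level was 23.9 and 24.3 RPM in 93-11 and 4.74 and 4.88 RPM in Nipponbare, with SHR1 at 0 in Nipponbare. Both tested members, PHO1;2 and CESA7, were called higher in 93-11, where 59.0% of all tested genes were. CESA7 had 14.2 and 15.2 RPM in 93-11 and only 1 and 6 reads in Nipponbare. The difference of PHO1;2 was 0.63, but 0.17 with no call after median-ratio scaling (limma adjusted p = 0.134) and -0.35, called higher in Nipponbare, after quantile normalization (limma adjusted p = 0.0129). HMA2, a zinc and cadmium pump gene of the stele, was listed for 93-11 only at 98.2 ± 2.37 RPM. The secondary wall genes CESA4 and CESA9 had values for Nipponbare alone, CESA4 at 6.32 ± 0.460 RPM and CESA9 at 2.72 ± 0.559 RPM (SD, n = 2 each). Of 4 root hair markers, FH1 and EXPA17 were listed for both and called higher in 93-11, like 59.0% of all tested genes. Their summed level was 61.0 and 60.9 RPM in 93-11 and 0.791 RPM in each Nipponbare library. In Nipponbare FH1 had only 1 and 0 reads, and EXPA17 had 16 and 17. The others were listed for Nipponbare only, CSLD1 at 5.28 ± 0.493 RPM (SD, n = 2) and RHL1 at 0.

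Both tables held all 8 root meristem genes looked up. These are mitotic cyclin and kinase genes, the replication clamp gene PCNA, the stem cell niche factor gene PLT1 and the quiescent centre gene QHB, whose cells rarely divide. Their summed level was 360 and 370 RPM in 93-11, of which PLT1 gave 115 and 119 RPM, and 4.05 and 4.32 RPM in Nipponbare. CYCB2;1, CYCB2;2 and QHB had 0 reads in both Nipponbare libraries. Of all shared genes with at least 10 RPM in 93-11, as CYCB2;1 and CYCB2;2 had, 7.58% were at 0 in Nipponbare. The 7 tested members were called higher in 93-11, where 59.0% of all tested genes were. The part of these cell-type and meristem markers in the differences of Lsi6 and Lsi2 was not tested. In bulk RNA, fewer cells of a type and less RNA per cell cannot be told apart. Whether both cultivars were counted alike was also not tested.

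**Figure D4:**
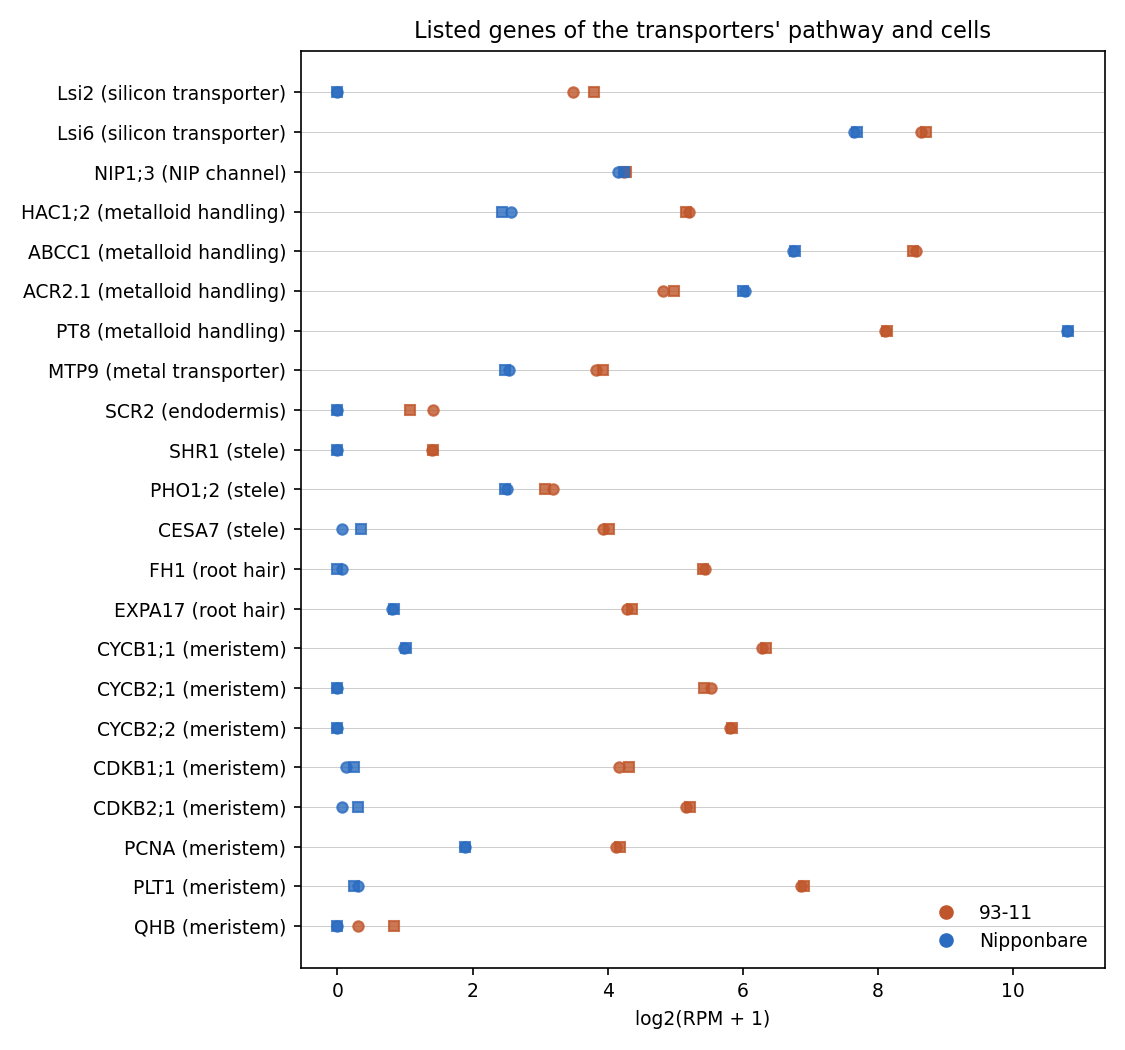
Level as log2(RPM + 1) (horizontal axis) of each gene of the lists that both tables hold (rows, with the list in brackets), circles for replicate 1 and squares for replicate 2. In 2 genes, ACR2.1 and PT8, the Nipponbare points lie right of the 93-11 points, in NIP1;3 the cultivars nearly coincide, and in the other rows 93-11 lies to the right.

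The genes closest to Lsi6 and Lsi2 in level over the 4 libraries were looked up among the 8572 other genes in both tables, by Euclidean distance in log2(RPM + 1). These distances rest on 2 cultivars and describe level more than pattern. The files do not pair identifiers with names. The nearest gene to Lsi2 was LOC_Os10g40880, at a distance of 0.0712, with 10.1 and 13.5 RPM in 93-11 and 0 in both Nipponbare libraries, and 133 genes lay within 0.5. The nearest to Lsi6 was LOC_Os01g19020, at 0.314, with 402 and 443 RPM in 93-11 and 175 and 174 RPM in Nipponbare, and 3 genes lay within 0.5.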

How the data were processed

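The authors deposited 1 RPM table per cultivar with 1 column per library. HISAT2 2.0.4 and HTSeq 0.11.2 were used, per the submitters' processing notes. The build, the annotation and the strand setting were not given in the sources used here. Reads in listed genes account for 42.3% and 43.5% of all reads in the 93-11 libraries and for 55.6% and 55.7% in the Nipponbare libraries. Between 61.6% and 76.5% of values per library had lost the decimal point in the deposited tables. The power of 10 giving whole reads and the closest pair of libraries, the lowest of equal pairs, was taken, and 3 genes of 93-11 and 5 of Nipponbare whose libraries still differed by over 0.4 in log10(RPM + 1) were left out. Agreement of replicates is thus partly built in. In tables simulated with the same damage, 39 of 8574 genes for 93-11 and 34 for Nipponbare were restored wrongly. Only genes with many reads can be, 3745 and 3746 of those simulated, and per 100 of them 1.04 and 0.908 were wrong.

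The cultivars were compared with limma 3.58.1 (R 4.3.3, trended variance) on log2(RPM + 1), which understates changes of low genes, for 7267 of 8574 shared genes, those averaging 1 RPM or more, tests being two-sided and called at a Benjamini-Hochberg adjusted p of 0.05. The test was also run on simulated data in which few genes changed. That run does not show how the test behaves here, where 97.0% of tested genes were called. Intervals and limits at 0 reads cover counting error only. Members and lists were chosen with earlier results of these data known. Genes were named where a list held them, and likeness by distance. Identifiers were written from knowledge of the literature: RefSeq (ASM3414082v1) placed 30 of 44 symbols on the chromosome of their identifier, Lsi1, Lsi2 and Lsi6 among them, and did not hold 14, Lsi3 among them, whose names rest on that knowledge alone (also NIP1;3, HAC1;1, HAC1;2, ABCC1, BOR1, BOR4, MTP9, FH1, RHL1 and PLT1). The identifiers of NIP1;2 and NIP4;1, first written the wrong way round, were exchanged to match their RefSeq order. Alternatives covered pseudocount, filter, scaling, variance trend, a replicate block and leaving out each library.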

Additional observations from a re-analysis of the deposited data

How the results depend on the processing

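Lsi6 kept its direction and call under all 11 alternatives, and Lsi2 likewise, though its calls with a 93-11 library left out are void. Leaving out each library in turn gave 0.97 to 1.04 for Lsi6 and 3.48 to 3.79 for Lsi2 (log2 difference). With a 93-11 library left out, the residual spread comes from Nipponbare alone, which for Lsi2, at 0 in both libraries, is 0. A lone library is assumed to vary like the other group. With the replicate number as a block the differences were 1.00 and 3.64, both called, and 4294 and 2775 genes were called higher in 93-11 and in Nipponbare, against 4290 and 2757 without it. Replicates of the same number did not deviate together (r = 0.0195 across 7267 genes), so the numbers were not taken as pairs. Quantile normalization gave 3891 and 3035 calls, and no filter 5278 and 2951. Among 17 other tested genes, 183 of 187 results kept direction and call. These include CYCB2;1 and CYCB2;2, also at 0 in both Nipponbare libraries, whose calls with a 93-11 library left out are void likewise. Of all 187 results, 11 of genes called as reported moved by over 1.5 times, PHO1;2 with both scalings among them. The results that did not keep direction and call were those of NIP1;3 and PHO1;2. NIP1;3 turned to -0.45 with median-ratio scaling and -0.60 with quantile normalization. PHO1;2 (0.63) lost its call at 0.17 with the first and turned to -0.35 with the second. The next higher power of 10 would put every restored level at 10 times its value. At 0 reads, counting error alone allows a level of up to 0.140 RPM in a library.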

Other observations

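LOC_Os identifiers are numbered along the chromosomes, so the genes around each silicon transporter gene could be counted. Within 200 identifier numbers of Lsi2, a window chosen after values were seen, 10 genes were tested, and 10 were called higher in 93-11, with a median difference of 3.37 on the log2(RPM + 1) scale, against 59.0% and 1.45 over all tested genes. The same window held 6 tested genes around Lsi6, of which 3 were called higher in 93-11 and 2 higher in Nipponbare. Around Lsi1, 3 of 6 tested genes were called higher in each cultivar, and around Lsi3, 6 of 8 were called higher in 93-11 and 2 in Nipponbare. These are counts only, and whether the surroundings of Lsi2 stand apart was not tested.

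The same windows also show how often neighbours were listed for a single cultivar, as Lsi1 and Lsi3 were. Around Lsi1, 20 neighbours were listed, 8 for both cultivars, 3 for 93-11 only and 9 for Nipponbare only. Around Lsi3 there were 21, with 11 for both and 5 for each cultivar alone. Of all identifiers, 4909 were listed for 93-11 only and 7078 for Nipponbare only.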
